A study of Mus musculus with 3 samples.

Results

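The 8 genes described here, Hmgcs1, Insig1, Sqle, Idi1, Srebf2, Fdft1, Lss and Sc5d, make or regulate cholesterol. They were chosen by symbol, and all 8 were found among the 32285 genes of the feature tables. The cells were E14 mouse embryonic stem cells of 129/Ola background, kept in serum with leukemia inhibitory factor and profiled by 10x Genomics 3' v3 single-cell RNA sequencing after freezing and thawing. The study asked how transcripts change when translation is blocked. From 24 h after seeding, cells received cycloheximide, an inhibitor of translation elongation, at 250 µg/mL in 0.007% ethanol for 3 h or for 6 h. Control cells received ethanol alone for 6 h, so the 3 h library has no ethanol control of its own duration. There was 1 library in each group. Every comparison below is therefore between single libraries, with no test and no replicate check, and the treatment cannot be told apart from differences between cultures or preparations. The 95% intervals given cover counting error only.

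Cells make cholesterol from acetyl-CoA through the mevalonate pathway. When sterols in the endoplasmic reticulum run low, the membrane-bound factor SREBP2, encoded by Srebf2, is escorted to the Golgi, cut by proteases, and enters the nucleus, where it activates the genes of the pathway. Insig1 encodes a retention protein that holds SREBP2 in the endoplasmic reticulum when sterols are abundant, and it is itself a target of SREBP2. Dividing cells need this supply for new membranes. SREBP2 binds sterol regulatory elements, usually beside a site of the factor NF-Y, whose core is CCAAT.

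Stretches upstream of 5 members are shown because SREBP2 acts through elements in promoters. The stretches are 100 bases each, from RefSeq windows on GRCm38.p6 that run from 250 bases before to 50 after the annotated start. Of the 8 members, 6 had a window. Capitals mark matches to TCACNCCA or TCACNCCAC, a form of the sterol regulatory element, and to CCAAT, which reads ATTGG on the strand printed. Each line is 5′ to 3′ on the strand of its gene.
Hmgcs1, chr13:119690168-119690267, plus strand: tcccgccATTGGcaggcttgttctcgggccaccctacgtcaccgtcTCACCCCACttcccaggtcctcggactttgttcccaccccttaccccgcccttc
Srebf2, chr15:82147061-82147160, plus strand: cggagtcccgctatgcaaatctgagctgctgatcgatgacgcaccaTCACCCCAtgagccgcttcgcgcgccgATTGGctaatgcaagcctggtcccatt
Insig1, chr5:28071162-28071261, plus strand: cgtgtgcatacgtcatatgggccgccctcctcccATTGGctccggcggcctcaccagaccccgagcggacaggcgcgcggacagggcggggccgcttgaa
Lss, chr10:76531488-76531587, plus strand: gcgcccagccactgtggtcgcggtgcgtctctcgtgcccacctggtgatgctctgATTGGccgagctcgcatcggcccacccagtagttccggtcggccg
Sc5d, chr9:42264301-42264400, minus strand: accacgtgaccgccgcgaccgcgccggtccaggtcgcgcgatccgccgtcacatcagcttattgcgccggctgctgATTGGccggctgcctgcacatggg

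Motifs were searched on both strands of all 32851 windows of this length. The longer form TCACNCCAC was in 1.24% of all windows and in the window of 1 member, Hmgcs1, 137 bases before its start. The shorter form TCACNCCA, which every longer match also contains, was in 4.36% of all windows and in those of 2 members, Hmgcs1 and Srebf2, the latter 162 bases before the start. CCAAT was in 37.4% of all windows and in 6 of the 6 member windows, with 4 matches in Hmgcs1 and 2 in Idi1. GGGCGG, the core of an Sp1 site, was in 35.7% of all windows and also in those 6. The E-box CACGTG was in 7.15% of all windows and in those of Insig1 and Sc5d. A match describes these letters only.

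Cells were barcodes with at least 15000 UMIs (unique molecular identifiers, each marking 1 captured molecule) and 1 to 20% mitochondrial UMIs. Of these there were 2187 with ethanol, 1739 after 3 h and 2554 after 6 h, with 111447486, 106842407 and 140321458 UMIs and medians of 43160, 51726 and 46200 UMIs per cell. The mitochondrial limit left out 62 control barcodes, 1 at 3 h and 8 at 6 h. Libraries shared at most 3 cell barcodes in any pair. The mitochondrial share was 4.57% with ethanol, 3.51% after 3 h and 2.94% after 6 h, and its part in the results was not tested. Stem cell markers were present, with 8 of 8 above 50 CPM (the UMIs of a gene over all UMIs of the cells, the usual library-size scaling) in every library, while the summed level of 6 fibroblast or feeder markers was 1.29 to 2.48 CPM, with Col3a1 and Lum at 0 UMIs. Summed endoderm, mesoderm and neural markers lay between 1.05 and 14.5 CPM.

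A ratio of CPM is relative to the rest of the transcriptome, and the centre of that scale differed between libraries. Over the 7608 genes that averaged 10 CPM or more, the median log2 ratio to control was 0.17 at 6 h and 0.11 at 3 h. TMM scaling, which sets most genes near 0, lowered all ratios and gave medians of -0.12 and -0.063. Comparing mean UMIs per cell gave medians of 0.27 and 0.38. Called lower or higher below means at least 1.5-fold. Counts are to be read beside the share of these genes past the same fold. By CPM this share at 6 h was 7.79% lower and 22.1% higher, and it is not given here for other scalings.

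After 6 h of cycloheximide, 6 members were lower than in the control and 2 were higher. Lower were Hmgcs1, Insig1, Sqle, Idi1, Srebf2 and Fdft1, and higher were Lss and Sc5d. This 6 to 2 division was the same under CPM and all 9 alternative settings. Of all genes, 35.9% were below the control at 6 h by CPM, 59.5% with TMM scaling and 28.4% by mean UMIs per cell. The summed level of the 8 genes was 318 CPM with ethanol (95% interval 315 to 322), 273 CPM after 3 h (270 to 276), and, after 6 h, 238 CPM (235 to 241), a log2 ratio of -0.42 at 6 h. Of the 8, 7 passed the 10 CPM floor, all but Insig1. Hmgcs1 alone was at least 1.5-fold lower at 6 h, against 7.79% of all genes, and Sc5d alone at least 1.5-fold higher, against 22.1% of all genes. By CPM no member was past 2-fold in any comparison, against 2.41% of all genes lower and 8.65% higher at 6 h, 0.513% and 4.32% at 3 h, and 0.657% and 0.145% between 6 h and 3 h; with TMM scaling Hmgcs1 was past it at 6 h, at -1.26. Under TMM scaling, 6 of the 8 were at least 1.5-fold lower and none was at least 1.5-fold higher. The shares of all genes past 1.5-fold are by CPM and do not apply to these counts. TMM scaling also moved the median of all genes at 6 h to -0.12. The median log2 ratio of the 7 was -0.43 at 6 h and -0.14 at 3 h, beside 0.17 and 0.11 over all genes. By mean UMIs per cell the 3 h median turned to 0.13, with 5 of the 7 above 0. By that scaling the median of all genes was 0.38, with 89.1% of them above 0. With TMM scaling the 3 h median of the 7 was -0.32, beside -0.063 for all genes. The sign of the group at 3 h thus depends on the scaling, while its median lay below that of all genes each time.

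**Figure D1:**
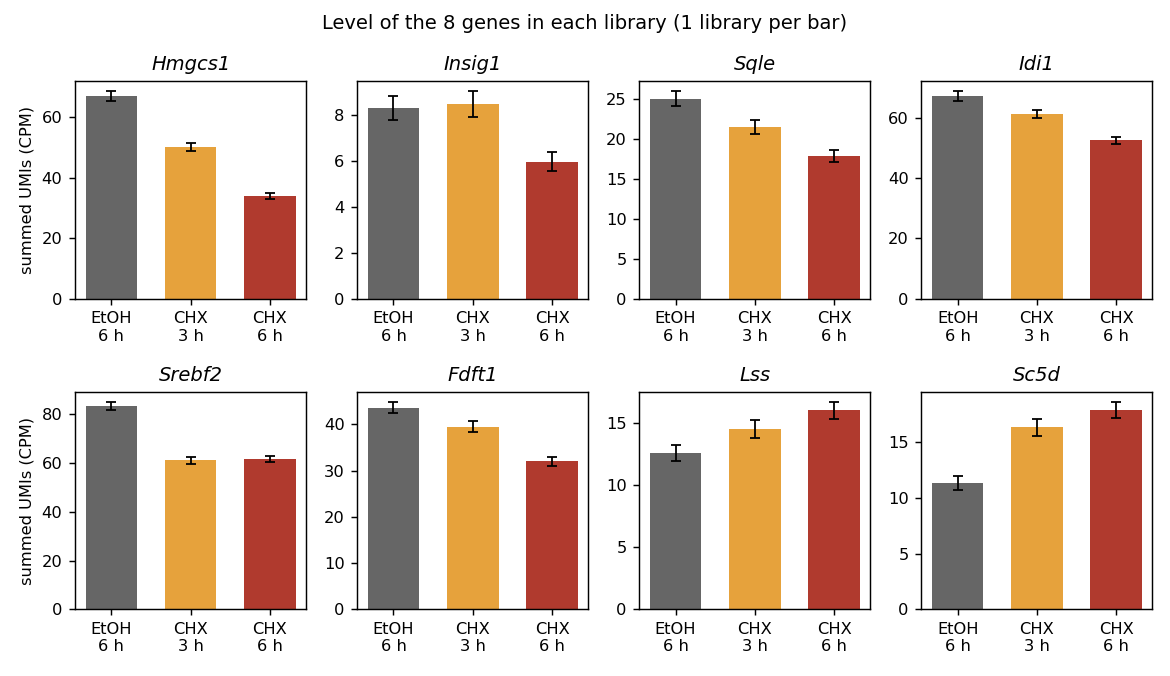
Summed level of each gene in CPM (vertical axis, a separate scale for each gene, from 0) in the ethanol control, the 3 h and the 6 h cycloheximide library, with 1 library per bar and 95% Poisson intervals for counting error. Hmgcs1 stepped from 66.9 to 50.05 to 34.0 CPM, while Sc5d went from 11.3 to 16.3 to 17.9 CPM.

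Among the regulators, Srebf2 (ENSMUSG00000022463, chromosome 15, 82147181 to 82205379) had 83.4 CPM with ethanol (81.7 to 85.1), 61.2 CPM after 3 h (59.8 to 62.7), and, after 6 h, 61.7 CPM (60.4 to 63.0). By CPM the control stood apart from both cycloheximide libraries, which did not differ beyond counting error. The 3 h library differed from the control by -0.44 on the log2 scale and the 6 h library by -0.43, and 4.27% of all genes lay below the 3 h value. Over the alternative settings the log2 ratio of 6 h to 3 h ran from -0.15 to 0.065. By depth it was -0.26 in cells of 15000 to 30000 UMIs, 0.086 for 30000 to 60000 and -0.035 above that. In the first of these strata the 3 h ratio to control was -0.18. Barcodes with 10 to 100 UMIs, which hold RNA free in the suspension and not whole cells, contained 387, 329 and 351 CPM of Srebf2 with ethanol, after 3 h and after 6 h. These levels were 4.64, 5.37 and 5.69 times those in cells, and by the mean of the log2 excess Srebf2 was in place 18 of 7608 genes. For the other 7 members the same fold ran from 0.655 to 1.89. The level of Srebf2 also differed with depth, with 92.6 CPM in control cells of 15000 to 30000 UMIs and 82.7 CPM in those over 60000. When 10% of each library was taken as free RNA and subtracted, the Srebf2 ratio became -0.66 at 3 h and -0.75 at 6 h. The gene region also holds Mir33 and Gm49502. What these UMIs come from, and their part in the level of Srebf2 in cells, was not tested.

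Insig1 (ENSMUSG00000045294, chromosome 5, 28071363 to 28078662) had 8.28 CPM with ethanol (7.76 to 8.83), 8.45 CPM after 3 h (7.91 to 9.02), and, after 6 h, 5.96 CPM (5.57 to 6.38). The control and 3 h libraries did not differ beyond counting error, and the 6 h library lay below both. The 3 h library differed from the control by 0.029 on the log2 scale (-0.10 to 0.16), which became -0.15 under TMM scaling and 0.30 by mean UMIs per cell, and the 6 h library by -0.47 (-0.61 to -0.34). From 3 h to 6 h it was -0.50 (-0.64 to -0.37), lower than all but 3.64% of genes. The other regulators of this step went different ways. Insig2, a related retention protein, had 15.6, 17.8 and 19.6 CPM in the order control, 3 h, 6 h, as in all series of 3 values here. By CPM it was opposite in direction to Insig1 at 6 h, with a log2 ratio of 0.33, which shrank to 0.042 with TMM scaling. Scap, the escort of SREBP2, had 10.4, 6.53 and 6.52 CPM, with a mean of 7.81 CPM, under the 10 CPM floor. By CPM, like Srebf2, it was lower at 3 h and level from there to 6 h. Mbtps1, the first of the proteases that cut SREBP2, had a log2 ratio of -0.59 at 6 h.

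Hmgcs1 (ENSMUSG00000093930, chromosome 13, 119690379 to 119708260), the cytosolic synthase that makes HMG-CoA, had the lowest ratio of the members at 6 h. It had 66.9 CPM with ethanol (65.4 to 68.4), 50.05 CPM after 3 h (48.7 to 51.4), and, after 6 h, 34.0 CPM (33.0 to 35.0), and no intervals overlapped. The 3 h library differed from the control by -0.42 on the log2 scale (-0.47 to -0.37) and the 6 h library by -0.98 (-1.03 to -0.92), with only 2.51% of genes lower at 6 h. Cells grouped by depth gave the same direction, with log2 ratios at 6 h of -0.67 for cells of 15000 to 30000 UMIs, -0.94 for 30000 to 60000 and -1.05 above that.

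Idi1 (ENSMUSG00000058258, chromosome 13, 8885501 to 8892451), which interconverts the isomeric C5 building blocks of isoprenoids, had 67.3 CPM with ethanol (65.8 to 68.8), 61.3 CPM after 3 h (59.8 to 62.8), and, after 6 h, 52.5 CPM (51.3 to 53.7). Each library was below the one before it beyond counting error. The 3 h library differed from the control by -0.13 on the log2 scale and the 6 h library by -0.36, the smallest difference among the 6 lower members, with 14.6% of genes below it.

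The squalene enzymes gave lower levels for the first pair and a higher level for the third. Fdft1 (ENSMUSG00000021273, chromosome 14, 63145150 to 63179578), which joins farnesyl units into squalene, had 43.5 CPM with ethanol (42.3 to 44.8), 39.5 CPM after 3 h (38.3 to 40.7), and, after 6 h, 32.0 CPM (31.1 to 32.9). Sqle (ENSMUSG00000022351, chromosome 15, 59315077 to 59331192), the epoxidase that acts on squalene, had 25.01 CPM (24.1 to 26.0), 21.5 CPM (20.6 to 22.4) and 17.9 CPM (17.2 to 18.6). Both declined in steps, with log2 ratios at 6 h of -0.44 for Fdft1 and -0.49 for Sqle. Fdft1 overlaps exons of Ctsb on the other strand, and strand use in counting is not given in the sources used here. Ctsb had 41.2, 39.2 and 40.2 CPM, and the part of the shared exons in the counts of Fdft1 was not tested. Lss (ENSMUSG00000033105, chromosome 10, 76531588 to 76557138), the cyclase that forms the sterol ring system, had 12.6 CPM with ethanol (11.96 to 13.3), 14.5 CPM after 3 h (13.8 to 15.3), and, after 6 h, 16.03 CPM (15.4 to 16.7). It was thus higher in both cycloheximide libraries, by 0.20 at 3 h and 0.35 at 6 h on the log2 scale, and 63.9% of genes lay below its 6 h ratio. Under TMM scaling its log2 ratios shrank to 0.029 and 0.059.

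Sc5d (ENSMUSG00000032018, chromosome 9, 42251595 to 42264256), a desaturase of the late sterol steps, had the highest ratio of the members. It had 11.3 CPM with ethanol (10.7 to 11.96), 16.3 CPM after 3 h (15.6 to 17.1), and, after 6 h, 17.9 CPM (17.2 to 18.6), so that the intervals of the cycloheximide libraries did not reach that of the control. The 3 h library differed from the control by 0.53 on the log2 scale (0.42 to 0.64) and the 6 h library by 0.66 (0.56 to 0.76). With TMM scaling the 6 h value was 0.37, below the 1.5-fold call. Of all genes, 81.3% lay below Sc5d at 6 h, so that its place was inside the range of most genes.

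**Figure D2:**
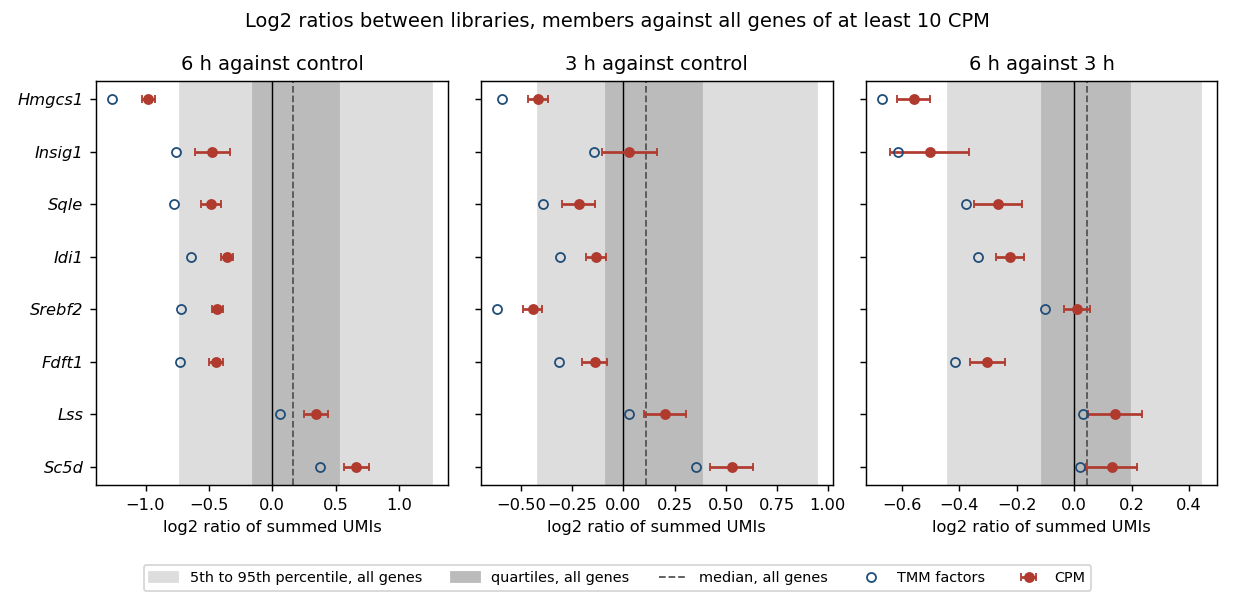
Log2 ratio (horizontal axis) of each gene between libraries, by CPM with 95% counting intervals (filled) and with TMM scaling (open), over shaded bands for the quartiles and the 5th to 95th percentiles of 7608 genes. At 6 h against control Hmgcs1 lies at -0.98, outside the band that begins at -0.73, while Lss (0.35) and Sc5d (0.66) lie to the right of 0.

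The comparison of 6 h with 3 h does not use the control library. At least 1.5-fold lower in it were 2.52% of all genes and none of the 8 members under CPM, and at least 1.5-fold higher were 1.74% of all genes and none of the members. Hmgcs1 came nearest, at -0.56 (-0.61 to -0.50), followed by Insig1, by Fdft1 at -0.30, by Sqle at -0.27 and by Idi1 at -0.22. Srebf2 was level by CPM at 0.011 (-0.036 to 0.057) and ran from -0.15 to 0.065 over the alternative settings. Lss and Sc5d were slightly higher at 0.14 and 0.13, and both turned to values below 0 by mean UMIs per cell, -0.019 and -0.030. The median of all genes by that scaling was -0.12. At 3 h against control no member was at least 1.5-fold lower by CPM, against 2.13% of all genes, or higher, against 13.9%. By mean UMIs per cell the 3 h ratios of Sqle, Idi1 and Fdft1 turned to 0.050, 0.14 and 0.13, beside a median of 0.38 for all genes. The sign of these 3 genes at 3 h thus depends on the scaling, whereas at 6 h it did not.

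The other 16 enzymes of cholesterol synthesis, listed with earlier results of these data known, lay on both sides of the control. Of the 13 that passed the floor, 7 were below and 6 above the control at 6 h, while 35.9% of all genes were below it. The median log2 ratio of the 13 was -0.025, beside 0.17 for all genes. This median was -0.31 with TMM scaling, beside -0.12 for all genes, and 0.083 by mean UMIs per cell, beside 0.27. Its sign thus depended on the scaling, while it lay below the median of all genes each time. At least 1.5-fold lower were 3 enzymes (7.79% of all genes), among them Lbr (-0.60), and no enzyme was at least 1.5-fold higher. Lbr encodes a sterol reductase that is also a nuclear envelope protein. Msmo1, a demethylation enzyme, was at -0.51. Highest were Mvd (0.37), Pmvk (0.34) and Ebp (0.34), which stand in the mevalonate steps and the late sterol steps, and Cyp51 followed at 0.32. Lower and higher transcripts were thus interleaved along the pathway. At 3 h none of the 13 was at least 1.5-fold away from the control in either direction.

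**Figure D3:**
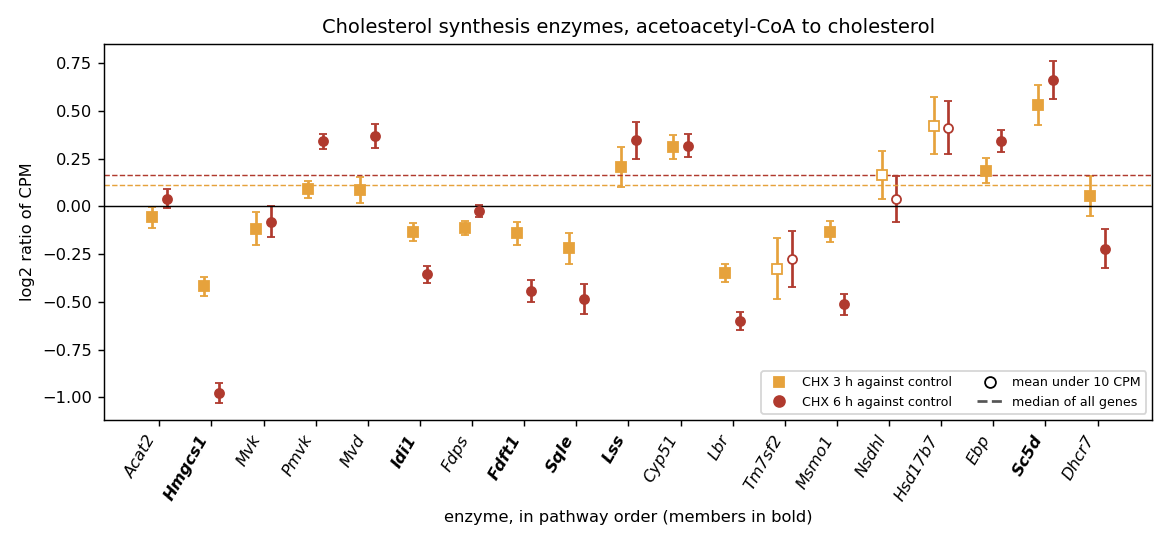
Log2 ratio to control (vertical axis) of cholesterol synthesis enzymes in the order of the pathway, at 3 h (squares) and 6 h (circles) with 95% counting intervals; open symbols mark genes under 10 CPM and dashed lines the medians of all genes. Among the enzymes drawn, Hmgcs1 lies lowest at 6 h, at -0.98, and Sc5d highest at 0.66.

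In the list of sterol uptake and transport, 6 of 11 genes passed the floor. Scarb1, a lipoprotein receptor, was higher at 6 h by 0.90 on the log2 scale, and Stard4, Npc1, Npc2 and Tmem97 were at 0.077, -0.010, -0.098 and -0.25. Below the floor, and singled out after their values were seen, 2 genes of this list went opposite ways. Vldlr, a lipoprotein receptor, had 4.58, 1.53 and 0.734 CPM, and Lpl, the lipase that acts on circulating lipoproteins, had 3.54, 7.25 and 18.4 CPM.

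In the list of sterol sensing and SREBP processing, 9 of 12 genes passed the floor. Their median was 0.24 at 6 h, with 2 genes at least 1.5-fold higher (22.1% of all genes), among them Erlin1 (0.61), and Mbtps1 at least 1.5-fold lower (7.79% of all genes). With TMM scaling the median turned to -0.051, beside -0.12 for all genes, and Erlin1 to 0.32. By mean UMIs per cell Mbtps1 was at -0.49, short of the 1.5-fold call, which it also missed without the lower mitochondrial limit and without cells above 2 times the median UMIs. Also singled out after its values were seen, and below the floor, Rnf145, a ubiquitin ligase of the sterol feedback, had 13.6, 5.41 and 4.03 CPM. Srebf1, the gene of the sister factor SREBP1, had 8.70, 14.2 and 11.96 CPM. Fatty acid synthesis genes, targets mainly of SREBP1, were mostly lower. Of 9 above the floor, 7 were below the control at 6 h (35.9% of all genes) and the median was -0.45. Me1 (-0.92) and Fasn (-0.85) were at least 1.5-fold lower (7.79% of all genes). Scd2 was at -0.47, and Elovl6 (0.39) and Fads1 (0.12) were above the control. With TMM scaling 7 of the 9 were at least 1.5-fold lower, a count to which the share of 7.79% by CPM does not apply. The 10 genes of isoprenoid branches lay on the other side, with a median of 0.64 (0.36 with TMM scaling) and 7 at least 1.5-fold higher (3 with TMM scaling, and 22.1% of all genes by CPM), among them Rabggtb (1.70), Pggt1b (1.16) and Coq2 (1.02). Of 8 genes listed for LXR and cholesterol efflux only Nr1h2 (-0.63), which encodes an LXR itself, Apoe (0.0049) and Lpcat3 (0.56) passed the floor.

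Single cells were compared after each was thinned to 15000 UMIs, which left out none. The mean of the 8 genes together was 4.83 UMIs per thinned cell in the control, 4.24 after 3 h and 3.69 after 6 h; the medians were 4, 4 and 3 and the 90th percentiles 9, 8 and 7. The distributions overlapped widely. A value above the control median was found in 47.0% of control cells, 39.4% at 3 h and 29.4% at 6 h, and cells with 0 UMIs of all 8 genes made up 3.06%, 4.14% and 4.07%. A Hmgcs1 UMI was present in 57.6% of thinned cells with ethanol (55.5 to 59.7), 50.9% after 3 h (48.5 to 53.3) and, after 6 h, 41.0% (39.1 to 42.9). Without thinning these shares were 87.5%, 86.9% and 75.4%. A Sc5d UMI was present in 16.2% (14.7 to 17.8), 21.6% (19.7 to 23.6) and 24.7% (23.1 to 26.5), and in 42.0%, 58.9% and 58.3% without thinning. These are exact binomial intervals for shares of cells with a UMI, not of expressing cells. Free RNA held 74.8, 71.4 and 29.8 CPM of Hmgcs1 and 8.34, 13.3 and 15.8 CPM of Sc5d, and its part in these shares was not tested.

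**Figure D4:**
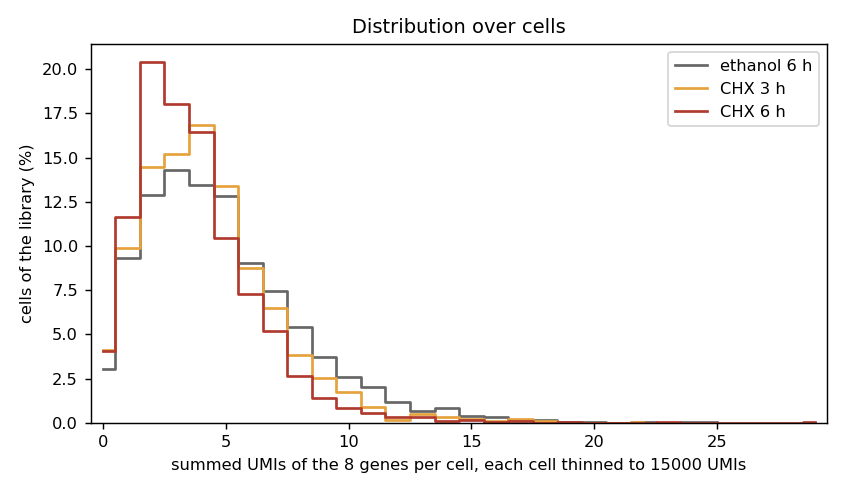
Share of cells (vertical axis, percent of the library) by the summed UMIs of the 8 genes per cell thinned to 15000 UMIs (horizontal axis), for the 3 libraries. The 6 h curve peaks further left, with a 90th percentile of 7 against 9 UMIs in the control, though its highest cell had 29 UMIs against 25.

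In the control, variation from cell to cell in 4 enzymes was larger than for most genes. It was measured as the excess squared coefficient of variation (variance minus mean, over the squared mean), in which the sampling noise of low counts is subtracted. In thinned control cells it was 0.47 for Hmgcs1, 0.47 for Sqle, 0.40 for Idi1 and 0.32 for Fdft1, above 95.7%, 95.6%, 94.2% and 91.5% of the 6381 genes with a mean of at least 0.2 UMIs. At 6 h the values were 0.32, 0.065, 0.11 and 0.15, while the median over all genes was 0.079 in the control and 0.085 at 6 h. Idi1 declined in steps, with 0.26 at 3 h. Thinning discards most UMIs, so the measure was repeated on all UMIs with each cell scaled by its own depth, a choice made after seeing the data. That gave 0.36, 0.22 and 0.14 for Idi1 in the order control, 3 h, 6 h, 0.31, 0.21 and 0.13 for Fdft1, and 0.29, 0.12 and 0.11 for Sqle. For Hmgcs1 it gave 0.44, 0.37 and 0.39, so the lower value of Hmgcs1 at 6 h was seen mainly in thinned cells. Thinned to 10000 UMIs, Sqle had 0.24, 0.32 and 0.26, without a decline. Srebf2 stood apart with 1.22, 1.01 and 2.21, above at least 98.5% of genes in each library. Insig1, Lss and Sc5d had under 0.2 UMIs per thinned control cell, too few to compare after thinning. With all UMIs scaled by depth, Insig1 had 0.79, 0.40 and 0.47 and Lss 0.31, 0.14 and 0.066. Sc5d was near 0 by this measure, with 0.012, 0.045 and 0.061. In cells thinned to 15000 UMIs it had -0.21, 0.033 and -0.040, without a steady direction. Each value comes from 1 library and has no error between replicates.

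The median covariance across cells over pairs of members was lower in the cycloheximide libraries, though not every pair was lower. Pairs with Insig1, Lss or Sc5d rest on few UMIs in thinned cells. The covariance of 2 genes over the product of their means, a measure chosen after the data had been seen that low counts do not shrink, had a median of 0.19 over the 28 pairs with ethanol, 0.12 after 3 h and 0.047 after 6 h. It was above 0 for 25, 26 and 18 of the pairs in thinned cells, and for 26, 26 and 22 with all UMIs scaled by depth. Pairs of other genes were not measured in this way. Over the 21 pairs without Srebf2 the medians were 0.23, 0.15 and 0.065, and with all UMIs scaled by depth they were 0.23, 0.12 and 0.036. Over the 6 pairs of Hmgcs1, Sqle, Idi1 and Fdft1 the medians in thinned cells were 0.26, 0.17 and 0.067. Hmgcs1 with Idi1 had 0.30, 0.26 and 0.065, and Hmgcs1 with Sqle 0.38, 0.15 and 0.11. Some pairs went otherwise: Sqle with Srebf2 had 0.035, 0.18 and 0.032, and Insig1 with Srebf2 0.023, 0.039 and 0.16. The ordinary correlation of log counts, which low counts do shrink, was 0.23, 0.18 and 0.028 between Hmgcs1 and the sum of the other 7. Such weak correlations in sparse counts describe these libraries and were not tested.

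**Figure D5:**
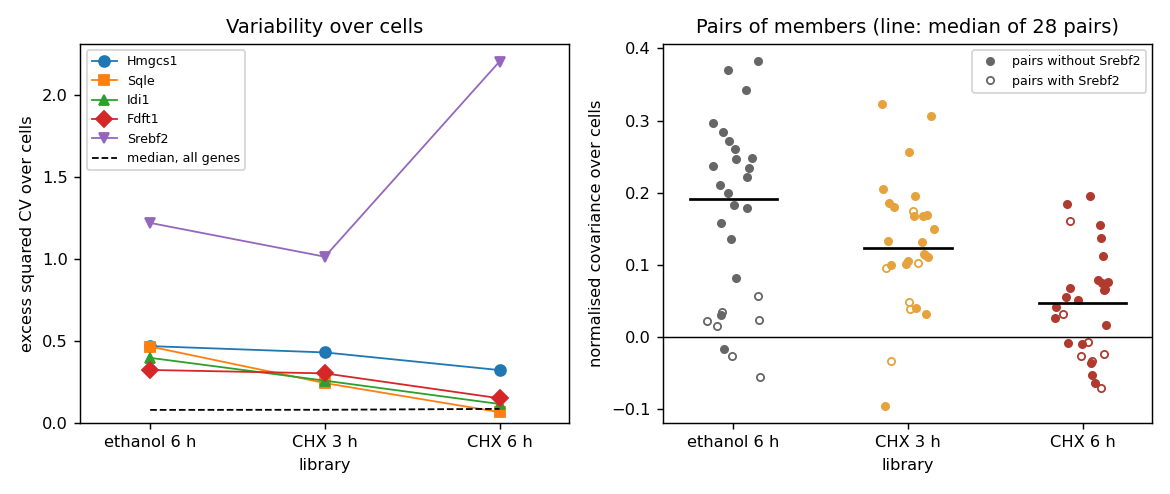
Left, excess squared coefficient of variation over thinned cells (vertical axis) for 5 members and the median of all genes (dashed) in each library; right, normalised covariance of each of 28 pairs of members, with a line at the median. Idi1 goes from 0.40 in the control to 0.11 at 6 h, toward the dashed line, and the median of pairs goes from 0.19 to 0.047, while Srebf2 stays above 1.

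Genes most like the members across cells were sought among 5564 others of at least 20 CPM, by Pearson's r of log counts with the summed members, averaged over the 3 libraries. The cells of a library share its preparation, and all were thinned to 1 depth. Among the first 10 were Cyp51 (0.13), Msmo1 (0.13), Scd2 (0.12), Akap12 (0.11), Smarca5 (0.11), Fdps (0.10), Hsp90b1 (0.10), Elovl6 (0.10) and mt-Co3 (0.10). Of these 10, 6 belong to the pathway lists, which hold 31 of the 5564 genes. In the control alone r was 0.20 for Msmo1 and 0.18 for Cyp51, against a 95th percentile of 0.060 over all genes. At 6 h they had 0.047 and 0.064, beside a 95th percentile of 0.048. Leaving Srebf2 out of the sum, an alternative added after seeing the data, kept 9 of the 10 genes and gave 0.22 for Msmo1 in the control. At 6 h the level of Cyp51 was above the control and that of Msmo1 below it.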

How the data were processed

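For each of the 3 libraries the authors deposited unnormalised UMI counts, 1 per gene and barcode, made with Cell Ranger 4.0.0 on mm10 per the submitters' processing notes; the annotation release is not given in the sources used here. Each matrix listed 6794880 barcodes, so cells had not been called. Cells were kept by UMI number and mitochondrial share as stated above, no doublets were removed, and counts were summed per library and scaled to CPM. Log2 ratios used a prior of 0.5 counts. Levels carry exact Poisson intervals, ratios exact conditional binomial intervals. Cells were thinned without replacement to compare them at 1 depth. Gene positions are GENCODE M21 on GRCm38, where 32158 of 32285 identifiers matched. The ratio, interval, thinning and covariance steps were tested on simulated data. The members and lists were chosen with earlier results of these data known. Named from each list were up to 3 highest and 3 lowest genes at 6 h of at least 10 CPM, some fixed genes (among them Insig2, Scap, Srebf1, Abca1, Fasn and Scd2), and the 10 genes closest across cells; some genes that this rule names are not reported here. Alternatives were TMM factors (edgeR 4.0.16, R 4.3.3), mean UMIs per cell, nuclear genes only in the total, minimums of 30000 and 2000 UMIs, no lower mitochondrial limit, leaving out cells of over 2 times the median UMIs, subtraction of 10% free RNA, a prior of 5 counts, a 2-fold call, floors of 50 CPM and none, and thinning to 10000 UMIs or none. Added after seeing the data were the sum without Srebf2, the covariance measure, variability without large cells, and variability and covariance scaled by depth. Python 3.11.15 with numpy 2.4.6, scipy 1.17.1 and pandas 2.3.3 was used.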

Additional observations from a re-analysis of the deposited data

Results flagged for a closer look

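Abca1, the transporter that exports cholesterol and a target of LXR, had opposite signs at the 2 times. It had 6.32 CPM with ethanol (5.86 to 6.80), 8.45 CPM after 3 h (7.91 to 9.02), and, after 6 h, 5.57 CPM (5.18 to 5.97). The log2 ratio to control was 0.42 at 3 h and -0.18 at 6 h, with counting intervals away from 0 at both times, and -0.60 between 6 h and 3 h. The signs at 3 h and 6 h were the same with TMM factors and by mean UMIs per cell, but by the latter the 6 h ratio was near 0, at -0.074. With a mean of 6.78 CPM, Abca1 was under the 10 CPM floor. Both ratios use the same control library, and with 1 library at each time this difference was not tested.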

How the results depend on the processing

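The 6 to 2 division of members at 6 h held in all 9 alternatives, with Hmgcs1 between -1.26 and -0.87 and Sc5d between 0.37 and 0.77. The share of all genes below the control ran from 28.4% by mean UMIs per cell to 59.5% with TMM factors. Lss came nearest 0, at 0.059 with TMM factors. Counts past 1.5-fold depended on the scaling, and the shares of all genes past 1.5-fold given above are by CPM only. TMM factors gave 6 members lower and 0 higher at 6 h, 2 lower at 3 h and 2 lower between 6 h and 3 h. Mean UMIs per cell gave 1 member higher at 3 h, 2 lower between 6 h and 3 h, and 1 other enzyme lower at 6 h. Subtraction of free RNA gave 2 members lower at 6 h and 1 at 3 h. For the other enzymes at 6 h, 1 was lower without a lower mitochondrial limit, without cells above 2 times the median UMIs, and with a floor of 50 CPM. With a 2-fold call, 0 members were lower or higher at 6 h, and 0 other enzymes were lower at 6 h or between 6 h and 3 h. A floor of 50 CPM left 3 members with 0 higher at 6 h, and 5 other enzymes with 0 lower between 6 h and 3 h. Leaving Srebf2 out of the sum gave a 6 h ratio of -0.41 in place of -0.42 and a 3 h ratio of -0.15 in place of -0.22. No paired analysis was possible because each group has 1 library. Counting precision was not the limit for most members; the single library per group was.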

Other observations

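Genes that stood out like Srebf2 in barcodes of 10 to 100 UMIs were led by Lars2, Gm42418 and AY036118, the last of which had 8182 CPM there against 107 CPM in cells of the control. The excess of Srebf2 was far smaller than theirs but present in each of the 3 libraries. Hmgcs1 in the control was lower in deeper cells, with 75.5 CPM in cells of 15000 to 30000 UMIs, 69.4 CPM in those of 30000 to 60000 and 62.9 CPM above that.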
